A study of Mus musculus with 32 samples.

Results

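The genes of major histocompatibility complex (MHC) class II antigen presentation were followed in mouse liver. The 10 genes were H2-Aa, H2-Ab1, H2-Eb1, Cd74, Ciita, H2-DMa, H2-DMb1, H2-DMb2, H2-Oa and Ctss. They were taken by symbol from both tables of raw counts, 1 for females and 1 for males, and all 10 were present among the 41585 gene rows of each table. Liver RNA was sequenced from wild type (WT) and Cyp2b-null C57BL/6 mice (C57BL/6J in the study's methods), the latter lacking Cyp2b9, Cyp2b10 and Cyp2b13. Mice were 10 weeks old at the start and were fed for 8 weeks on a normal chow diet (ND) or on the CDAHFD, a high-fat diet (62% fat) that lacks choline and holds 0.1% methionine within defined L-amino acids. The 8 groups were ND-fed WT females, CDAHFD-fed WT females, ND-fed Cyp2b-null females, CDAHFD-fed Cyp2b-null females and the same 4 in males, with 4 libraries each and 32 in all. The null allele was made with CRISPR/Cas9, and the WT mice were bought from a supplier. Whether WT and Cyp2b-null mice were littermates is not given in the sources used here. The labels do not state that the 4 libraries of a group are from 4 different mice, and the p-values measure the spread between these libraries.

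Class II molecules are pairs of an alpha and a beta chain that carry peptides from the endosomes of antigen-presenting cells to their surface, where helper T cells read them. The invariant chain Cd74 fills the groove of a new class II pair and guides it to the endosome. Cathepsin S (Ctss) then cuts the invariant chain down to a short remnant, H2-DM (the chains H2-DMa and H2-DMb1 or H2-DMb2) exchanges this remnant for a peptide, and H2-O (with the chain H2-Oa) restrains H2-DM. H2-Aa and H2-Ab1 form the I-A molecule. H2-Eb1 is the beta chain of I-E, whose alpha chain gene is not functional in C57BL/6 mice. Ciita is the transactivator that switches the genes of the class II chains on through the X and Y boxes of their promoters. These boxes bind the RFX complex and NF-Y. In the liver the main carriers of class II are Kupffer cells, macrophages, dendritic cells and B cells.

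The X and Y boxes of the class II promoters were looked for in the sequences. The 7 H2 members lie on chromosome 17, Ctss on chromosome 3 and Ciita on chromosome 16. RefSeq windows from 250 bases before to 50 bases after the start were given for 7 of the 10 members. Each window was searched on both strands for the core of the X box (ACNGATG) and the core of the Y box (GATTGG), which do not share bases in the pairs described. A pair was an X core followed 20 to 40 bases later, start to start, by a Y core on the same strand. It was found in 22 of 32851 windows (0.067%). The X core was in 9.85% of windows and the Y core in 16.1%, with or without the other. Of the 7 members with a window, H2-Eb1, H2-DMb1 and H2-DMb2 held the pair, and H2-Aa, H2-DMa, H2-Oa and Ctss did not. The stretches around the pair are shown because they compare a gene that responded to the diet (H2-DMb1) with its near copy, which has the same layout and stayed at a few counts (H2-DMb2). All are from GRCm38.p6, 5′ to 3′ on the strand of the gene, with the cores in capitals. That of H2-Eb1 is chr17:34305759-34305832 on the plus strand, that of H2-DMb1 is chr17:34153080-34153154 on the plus strand, and that of H2-DMb2 is chr17:34145109-34145183 on the plus strand. For H2-Aa, at chr17:34287847-34287921 on the minus strand, the Y core had no X core 20 to 40 bases before it. The H2-Aa window held an X core elsewhere, counting both strands.
H2-Eb1: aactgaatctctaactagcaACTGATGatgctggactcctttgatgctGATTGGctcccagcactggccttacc
H2-DMb1: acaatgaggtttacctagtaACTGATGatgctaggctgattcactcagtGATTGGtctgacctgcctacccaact
H2-DMb2: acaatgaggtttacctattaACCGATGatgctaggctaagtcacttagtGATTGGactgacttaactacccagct
H2-Aa: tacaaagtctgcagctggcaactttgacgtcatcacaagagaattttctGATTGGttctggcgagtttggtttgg
The Y core began 60 bases before the start site in H2-Eb1, 62 in H2-DMb1, 91 in H2-DMb2 and 49 in H2-Aa. The distance from the X core to the Y core was 28 bases in H2-Eb1 and 29 bases in H2-DMb1 and H2-DMb2. A match of letters is a description and does not show binding.

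Library totals ran from 2906411 to 10166959 counts on genes, and a count of 3, taken as the floor of detection, was worth 0.246 to 1.17 CPM. CPM scales counts to a common library total after TMM normalization. The floor covers counting error only. The deletion was visible in the libraries: Cyp2b9 was at 533 to 613 CPM in ND-fed WT females and at 0.841 to 1.94 CPM in ND-fed Cyp2b-null females, and Cyp2b10 was at 5.96 to 14.4 CPM in ND-fed WT males and at 0.207 to 0.982 CPM in ND-fed Cyp2b-null males. As markers of the labelled tissue, 6 hepatocyte genes summed to between 56153 and 195392 CPM in every library. Changes are log2 fold changes with their standard error (SE) from edgeR's quasi-likelihood test, and a gene was called at a Benjamini-Hochberg adjusted p under 0.05 over all genes tested. The low-count filter was passed by 8 of the 10 members in each table. H2-DMb2 and H2-Oa did not pass.

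The class II genes were higher on CDAHFD in both sexes and both genotypes. All 8 members tested rose in WT females, in Cyp2b-null females and in Cyp2b-null males, and 7 of 8 rose in WT males, where the exception was Ciita. Of all genes tested, 13.9% rose in WT females, 16.9% in Cyp2b-null females, 18.0% in WT males and 20.3% in Cyp2b-null males. The median change of the 8 members was 1.45 in WT females, 2.17 in Cyp2b-null females, 2.34 in WT males and 1.93 in Cyp2b-null males on the log2 scale, beside medians over all genes between -0.02 and 0.03. Every CDAHFD-fed library was above every ND-fed library for 8 of 8 members in WT females, Cyp2b-null females and Cyp2b-null males, and for 7 of 8 in WT males. Such a gap with CDAHFD on top was found for 14.6%, 16.3%, 19.8% and 15.9% of all genes tested in the same 4 comparisons. Scaling by library size alone raised the share of higher calls among all calls from 57.6% to 88.8% in WT females, from 55.0% to 85.7% in Cyp2b-null females, from 54.6% to 89.7% in WT males and from 54.3% to 86.2% in Cyp2b-null males, with medians over all genes of 0.28 to 0.37, and all 8 members stayed higher under it. In bulk liver, more cells of a type and more RNA per cell cannot be told apart.

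**Figure D1:**
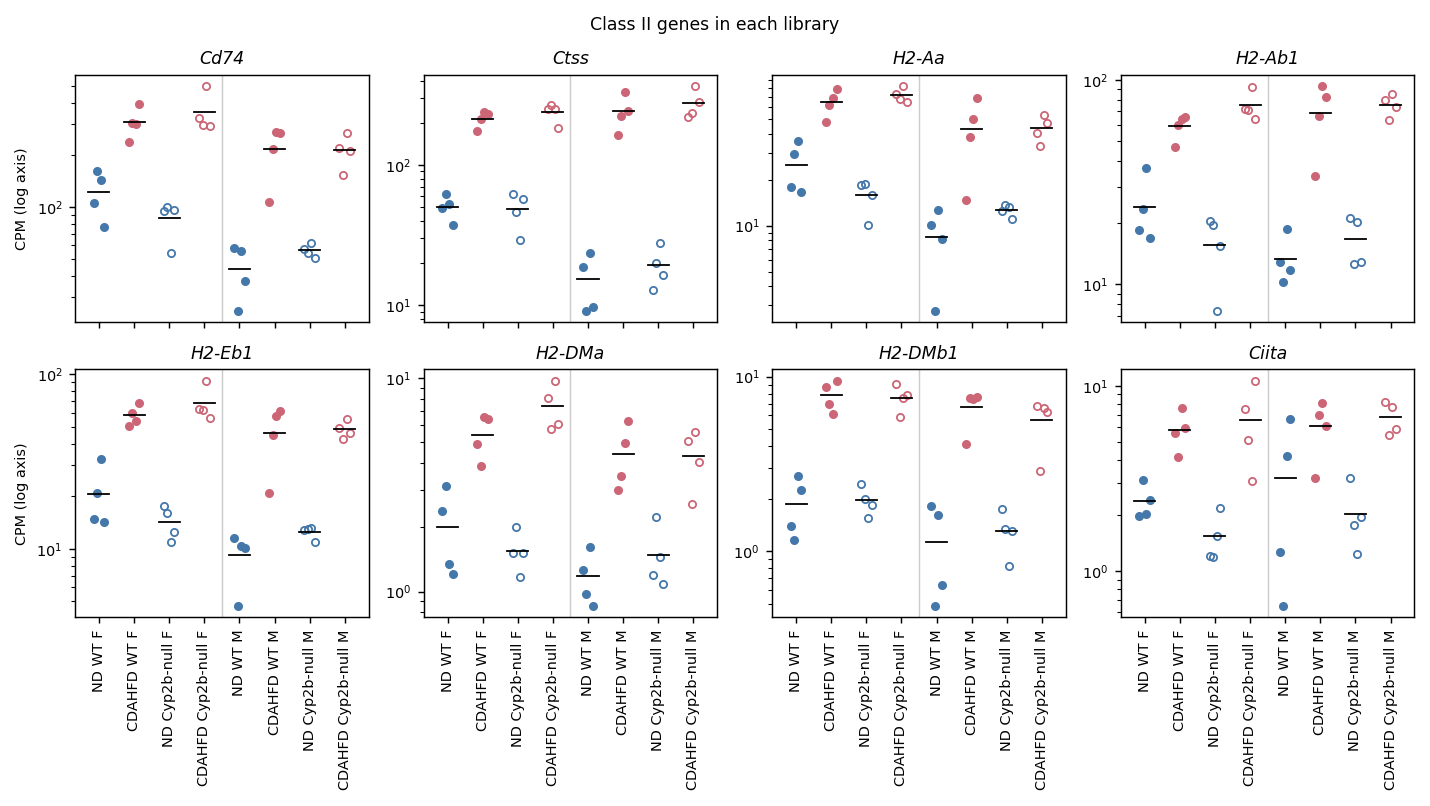
CPM of 8 class II genes in each of the 32 libraries, on log axes, with ND in blue, CDAHFD in red, WT filled, Cyp2b-null open, females (F) left and males (M) right of the grey line, and black bars at group means. CDAHFD-fed libraries lay above ND-fed libraries of the same sex and genotype for each gene except Ciita in WT males, where 6.64 CPM in an ND-fed library exceeded 3.16 CPM in a CDAHFD-fed library.

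Among the class II chains, H2-Aa, the I-A alpha chain, was at 17.9, 29.5, 35.8 and 16.6 CPM in the 4 ND-fed WT females (mean 24.97 ± 9.28, SD, n = 4) and at 47.8, 61.4, 69.1 and 78.7 CPM in the CDAHFD-fed WT females. In WT males it was at 10.1, 2.76, 12.6 and 8.14 CPM on ND and at 14.7, 37.97, 49.96 and 69.0 CPM on CDAHFD. The diets did not overlap in either sex. The rise was 1.41 ± 0.22 (SE) in WT females (adjusted p = 7.1e-05) and 2.34 ± 0.36 in WT males (adjusted p = 3.7e-05).

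H2-Ab1, the I-A beta chain, was at 18.3, 23.3, 36.8 and 16.9 CPM in ND-fed WT females and at 46.7, 60.0, 64.2 and 66.0 CPM on CDAHFD. In WT males the ND-fed libraries held 12.8, 10.2, 18.5 and 11.8 CPM and the CDAHFD-fed libraries 33.9, 66.3, 93.5 and 82.5 CPM. Neither sex had overlap between the diets. In Cyp2b-null females H2-Ab1 went from 20.3, 19.6, 7.39 and 15.3 CPM to 72.2, 71.1, 92.6 and 64.1 CPM. The change was 1.34 ± 0.24 in WT females, 2.23 ± 0.24 in Cyp2b-null females, 2.36 ± 0.26 in WT males and 2.16 ± 0.25 in Cyp2b-null males, and the highest of these 4 adjusted p-values was 0.00025. H2-Eb1, the I-E beta chain, moved like the I-A chains. It rose by 1.53 ± 0.23 in WT females and 2.34 ± 0.27 in WT males, from 14.2 to 32.8 CPM on ND to 50.3 to 67.9 CPM on CDAHFD in the females and from 4.70 to 11.6 CPM to 20.8 to 61.5 CPM in the males.

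The invariant chain was the most abundant of the members per length of annotated exons in 6 of the 8 groups. Cd74 was at 105, 161, 142 and 75.9 CPM in ND-fed WT females and at 237, 306, 299 and 394 CPM in CDAHFD-fed WT females. In ND-fed WT males it was at 57.4, 24.97, 55.3 and 37.0 CPM and in CDAHFD-fed WT males at 106, 216, 269 and 266 CPM. The diets did not overlap in either sex. The rise was 1.36 ± 0.23 (2.57-fold) in WT females, 2.03 ± 0.24 in Cyp2b-null females, 2.29 ± 0.26 (4.90-fold) in WT males and 1.92 ± 0.26 in Cyp2b-null males. Per kilobase of exon, Cd74 averaged 184 CPM in CDAHFD-fed WT females, against 158 for Ctss, 29.8 for H2-Eb1, 23.1 for H2-Ab1 and 16.9 for H2-Aa. In CDAHFD-fed males the order of the leading pair was the other way round, with Ctss at 178 and Cd74 at 128 CPM per kilobase in WT and at 203 and 126 in Cyp2b-null mice. H2-DMb1 at 4.65, H2-DMa at 1.58 and Ciita at 0.61 CPM per kilobase were the lowest of the members tested in CDAHFD-fed WT females. The exon lengths are unions over GENCODE transcripts and run from 1358 bases in Ctss to 9535 in Ciita, so levels of genes with many alternative exons are understated.

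Ctss, the protease that trims the invariant chain, had the largest diet effect of the 8 members in each of the 4 comparisons, though in females its lead over the next member was smaller than its SE. It was at 49.3, 62.1, 52.7 and 37.3 CPM in ND-fed WT females and at 174, 212, 241 and 231 CPM on CDAHFD. In WT males it went from 18.6, 9.08, 23.8 and 9.63 CPM to 164, 225, 331 and 245 CPM. The CPM of ND-fed males were below those of all ND-fed females of the same genotype, whereas the CDAHFD-fed libraries of the sexes overlapped. In ND-fed Cyp2b-null mice the gap was small, from 27.7 CPM in males to 29.2 CPM in females. CPM were scaled in each sex separately, and sex cannot be told apart from table or batch. No share over all genes is set beside this gap, so it is a description only. The rise was 2.10 ± 0.20 (4.29-fold) in WT females, 2.28 ± 0.20 (4.86-fold) in Cyp2b-null females, 3.96 ± 0.30 (15.6-fold) in WT males and 3.86 ± 0.29 (14.5-fold) in Cyp2b-null males, with adjusted p-values of 2.2e-07, 7.1e-08, 4e-09 and 3.5e-09.

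**Figure D2:**
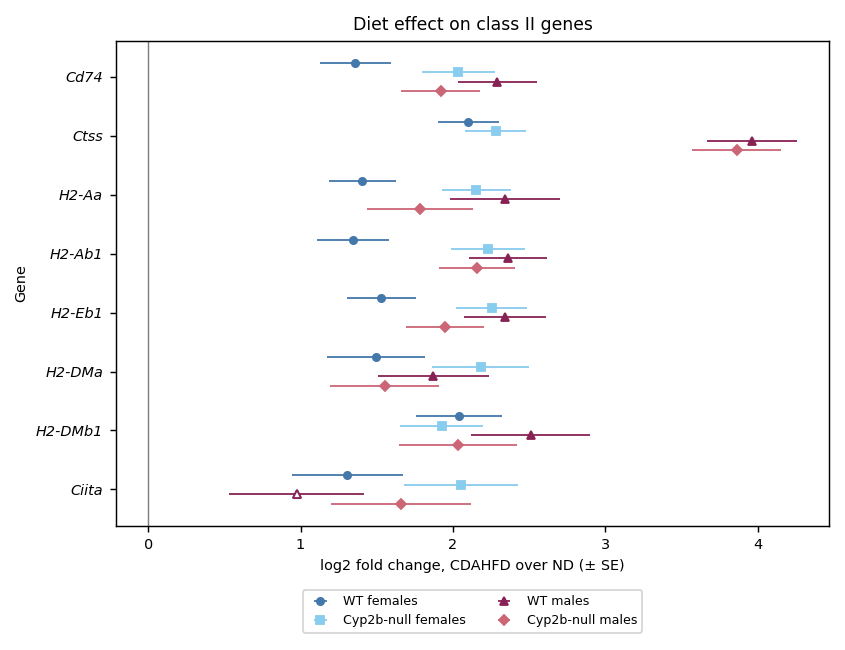
Log2 fold change of CDAHFD over ND (x axis, ± SE, 4 libraries per group) for 8 class II genes in the 4 combinations of sex and genotype, with open symbols where the adjusted p was 0.05 or more. Ctss in males stood at 3.96 and 3.86, and the lowest value was 0.97 for Ciita in WT males, the only open symbol.

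The chains of the peptide editor H2-DM were low but rose with the diet. H2-DMb1 was at 1.40, 1.17, 2.70 and 2.24 CPM in ND-fed WT females (3 to 13 counts) and at 8.67, 7.01, 6.13 and 9.48 CPM (29 to 59 counts) on CDAHFD. In WT males it was at 1.81, 0.486, 1.61 and 0.642 CPM on ND and at 4.10, 7.55, 7.47 and 7.67 CPM on CDAHFD. The diets did not overlap in either sex, although some ND-fed libraries were at the floor of 3 counts. Its change was 2.04 ± 0.28 in WT females and 2.51 ± 0.39 in WT males. H2-DMa, its alpha partner, rose by 1.5 ± 0.32 in WT females and 1.87 ± 0.37 in WT males. The females went from 1.21 to 3.11 CPM on ND to 3.87 to 6.54 CPM on CDAHFD, and the males from 0.856 to 1.61 CPM to 2.98 to 6.28 CPM.

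H2-DMb2, the near copy of H2-DMb1, stayed at a few counts and was not called. It had 0 to 8 counts per library, with 0 to 3 counts in ND-fed WT females, 2 to 8 in CDAHFD-fed WT females, 0 to 4 in ND-fed WT males and 0 to 8 in CDAHFD-fed WT males. When all genes were kept, its diet effect was 1.18 in WT females (adjusted p = 0.40) and 0.55 in WT males (adjusted p = 0.76), and in Cyp2b-null mice it was 0.10 in females and -0.18 in males. The transcripts of this pair share 72 of the 1529 windows of 150 bases in H2-DMb1 and 369 of its 1629 windows of 50 bases, so reads of both genes could be split or dropped, depending on how multiply mapping reads were counted, which is not given in the sources used here. H2-Oa, the alpha chain of the DM inhibitor H2-O, is listed at 0 in all 32 libraries. It lies wholly within the annotated lncRNA BC051537, also listed at 0 throughout. Among protein-coding genes, 29.4% of those wholly inside another gene were at 0 in every library. The share was 26.3% without overlap and 5.74% in partial overlap. Whether the overlap bears on the 0 of H2-Oa was not tested. The widely expressed genes Brd2, whose position overlaps that of H2-DMa, and Nfya, a subunit of NF-Y, are listed at 0 in all 32 libraries too, so a 0 in these tables need not mean that a transcript was absent.

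Ciita, the transactivator, was low and the least regular of the 8 members. In WT females it was at 1.99, 3.11, 2.03 and 2.42 CPM on ND and at 5.56, 4.11, 7.56 and 5.94 CPM on CDAHFD, a rise of 1.31 ± 0.37 (adjusted p = 0.012). In WT males it was at 1.26, 0.649, 4.16 and 6.64 CPM on ND, or 4 to 31 counts, and at 3.16, 6.94, 8.04 and 6.10 CPM on CDAHFD. The range within the ND-fed WT males, 0.649 to 6.64 CPM, was wider than the difference between the diet means, and the groups overlapped. The change was 0.97 ± 0.45 (adjusted p = 0.10) and was not called. Without the ND-fed WT male replicate 4 it was 1.52 (adjusted p = 0.014), and without the CDAHFD-fed WT male replicate 1 it was 1.20 (adjusted p = 0.045). In Cyp2b-null mice Ciita rose by 2.05 ± 0.38 in females (adjusted p = 0.00033) and by 1.66 ± 0.46 in males (adjusted p = 0.0069), and both were called.

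The effect of the Cyp2b deletion was the next comparison, made on each diet and in each sex. In edgeR's test 0 of the 8 members tested were called on ND in females, on ND in males, on CDAHFD in females or on CDAHFD in males, where 0.0756%, 0.0371%, 0.0227% and 0.0297% of all genes were called. DESeq2 also called 0 in each. At an unadjusted p under 0.05 there were 2 members in ND-fed females (H2-Aa and H2-Ab1) and 0 in each of the other 3 comparisons. Among all genes tested, 759 of 13226 had such a p on ND and 772 on CDAHFD in females. In males 1111 of 13460 did on ND and 487 on CDAHFD. Changes are given as Cyp2b-null over WT. On ND in females they ran from -0.59 ± 0.24 for H2-Aa to 0.05 ± 0.34 for H2-DMb1, with 7 of 8 members lower in Cyp2b-null females. On ND in males they ran from -0.53 ± 0.50 for Ciita to 0.57 ± 0.39 for H2-Aa, with 7 of 8 higher. On CDAHFD the range was -0.06 ± 0.22 for H2-DMb1 to 0.41 ± 0.26 for H2-DMa in females, and -0.27 ± 0.32 for H2-DMb1 to 0.19 ± 0.25 for Ctss in males. The groups overlapped for all 8 members in all 4 comparisons. No share over all genes is set beside this overlap, so it is a description only. The SEs of these 32 values ran from 0.19 to 0.50.

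**Figure D3:**
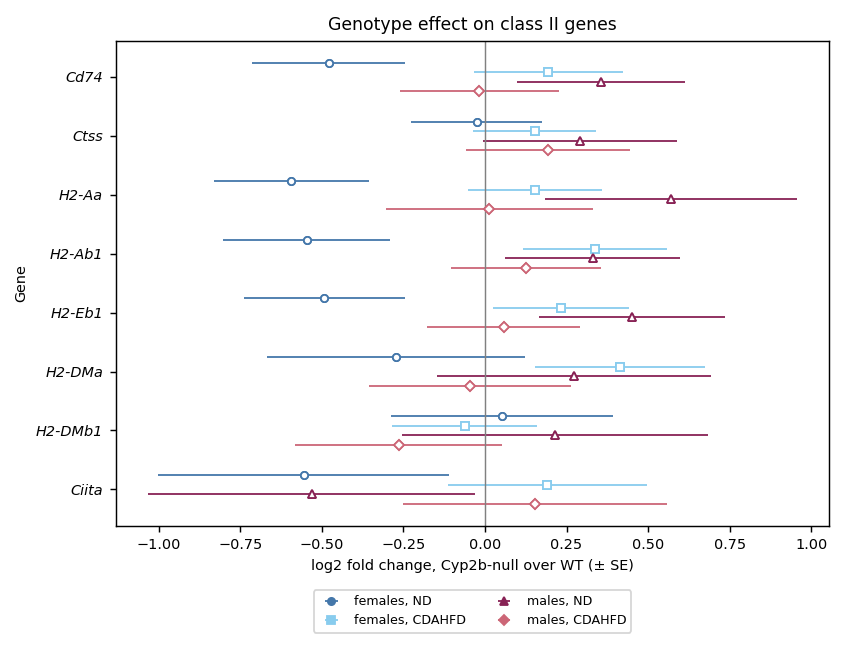
Log2 fold change of Cyp2b-null over WT (x axis, ± SE, 4 libraries per group) for 8 class II genes on each diet and in each sex. All symbols are open because 0 of the 32 values were called, and the lowest was -0.59 for H2-Aa in ND-fed females.

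No member passed the test of a genotype difference in the response to the diet. For the difference of the diet effect between Cyp2b-null and WT mice, edgeR called 0 of 8 members in females and 0 of 8 in males, beside 0.0% and 0.00743% of all genes, and DESeq2 called 0 members in each. At an unadjusted p under 0.05 there were 3 members in females (H2-Aa, H2-Ab1 and H2-Eb1) and 0 in males. Among all genes tested, 830 of 13226 had such a p in females and 817 of 13460 in males. The differences in females ran from -0.11 ± 0.41 for H2-DMb1 to 0.89 ± 0.34 for H2-Ab1 (adjusted p = 0.76). In males they ran from -0.56 ± 0.50 for H2-Aa to 0.68 ± 0.64 for Ciita. Of the 8 members, 7 had the larger diet effect in Cyp2b-null mice in females and 1 in males.

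A single member, Ctss, passed the test of a sex difference in the response to the diet. The diet effect on Ctss was larger in males by 1.88 ± 0.36 in WT mice (adjusted p = 0.0049) and by 1.60 ± 0.36 in Cyp2b-null mice (adjusted p = 0.0097), in 1 fit to all 32 libraries. In these comparisons 0.67% and 2.09% of all genes were called with the larger value in males. The other 7 members were not called in either genotype. In edgeR's test 5 members had an unadjusted p under 0.05 in WT mice (Cd74, Ctss, H2-Aa, H2-Ab1 and H2-Eb1), beside 1438 of 14020 genes tested. Only 1 did in Cyp2b-null mice (Ctss), beside 2686 of 14020 genes. In WT mice, H2-Ab1 had a difference of 1.04 ± 0.37 (adjusted p = 0.23), H2-Aa of 0.96 ± 0.45 and Cd74 of 0.95 ± 0.37. H2-Eb1 had one of 0.83 ± 0.37 and Ciita one of -0.31 ± 0.62. Without the CDAHFD-fed WT male replicate 1, H2-Ab1 was called with 1.26 (adjusted p = 0.040), and without the low-count filter H2-Ab1, H2-Aa and Cd74 were called beside Ctss. In Cyp2b-null mice the 7 others ran from -0.61 ± 0.49 for H2-DMa to 0.12 ± 0.47 for H2-DMb1. For the genotype effect on CDAHFD, edgeR and DESeq2 each called 0 of 8 members for a difference between the sexes. Of all genes, edgeR called 0.00713%. At an unadjusted p under 0.05 in edgeR there were 0 members, beside 441 of 14020 genes tested. The values ran from -0.47 ± 0.40 for H2-DMa to 0.04 ± 0.34 for Ctss.

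Ratios of the members within a library are given here as a description. They were chosen after the values were seen, and sex and table cannot be told apart from any batch that went with them. Counts of H2-Aa per count of H2-Ab1 were 0.891 to 1.37 in the 16 female libraries (median 1.004) and 0.270 to 1.09 in the 16 male libraries (median 0.632), and 15 of 16 male libraries were below every female one. For Cd74 per count of H2-Ab1 the range was 3.85 to 7.32 in females (median 5.08) and 2.39 to 4.48 in males (median 3.07). H2-Eb1 per count of H2-Ab1 had a median of 0.876 in females and 0.647 in males. A ratio within a library needs no scaling between libraries. On CDAHFD the sexes did not overlap in any of the 3 ratios. On ND they overlapped for H2-Eb1 in both genotypes, for Cd74 in WT mice and for H2-Aa in Cyp2b-null mice. Of 15 permutation tests (2-sided), the 3 over 16 against 16 libraries disregarded diet and genotype and are not read. They still entered the adjustment, which covered all 15 tests, and their low p-values made the adjusted p-values of the others smaller. Of those within a diet and genotype, 4 missed the smallest p that 4 against 4 allows (exact permutation p = 0.0286, adjusted p = 0.039). Their exact permutation p-values were 0.343 and 0.286 for H2-Eb1 in ND-fed WT and Cyp2b-null mice, 0.0571 for Cd74 in ND-fed WT mice and 0.143 for H2-Aa in ND-fed Cyp2b-null mice. All 3 ratios share the denominator H2-Ab1, and ratios chosen for a pattern give p-values that do not support it independently.

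**Figure D4:**
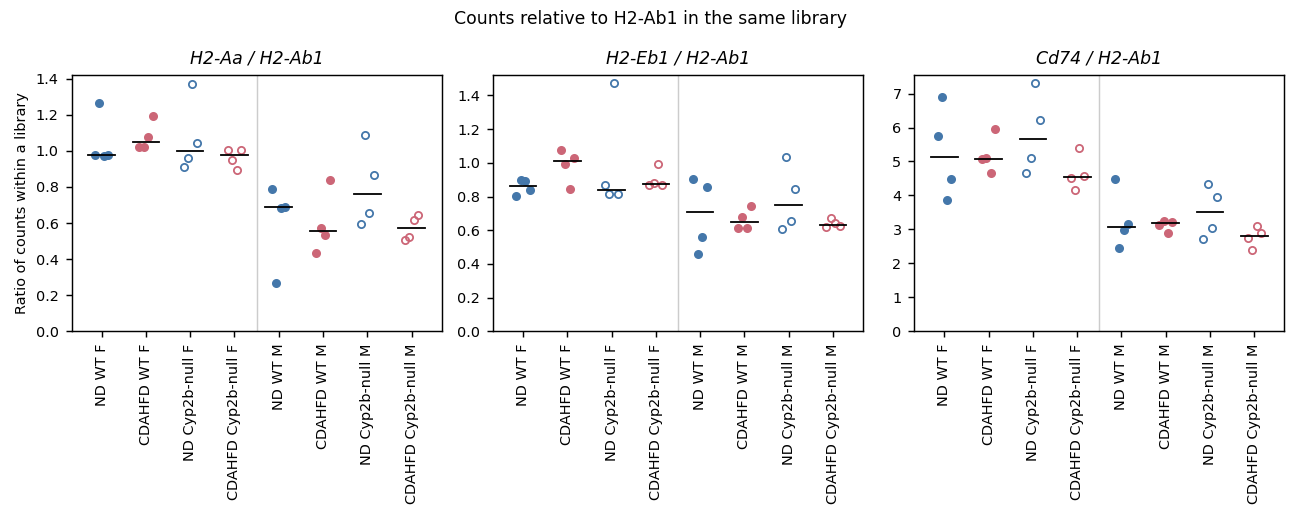
Counts of H2-Aa, H2-Eb1 and Cd74 divided by those of H2-Ab1 in the same library (y axis, from 0) for the 4 libraries of each group, with black bars at group medians, ND in blue, CDAHFD in red, WT filled and Cyp2b-null open. On CDAHFD the 8 male libraries lay below the 8 female libraries for each of the 3 ratios.

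The other genes of the class II pathway moved in part. Among all genes tested, 13.9% rose and 10.2% fell in WT females, and 16.9% rose and 13.9% fell in Cyp2b-null females. In males, 18.0% rose and 15% fell in WT, and 20.3% rose and 17.1% fell in Cyp2b-null mice. These shares stand beside the counts of this and the following lists. Single calls in short lists are not read as a result about the list. Of the class II pathway list, 22 of 24 genes were matched by symbol and 15 were tested in females and 14 in males. In WT mice 4 rose in females and 6 in males and 0 fell, and in Cyp2b-null mice 6 rose and 1 fell in each sex, the latter being Nfyb. The medians were 0.26 in WT females and 0.17 in WT males. The 4 genes that rose in WT females work on antigen in the endosome. The protease Lgmn rose by 1.27 ± 0.14 in WT females and 2.01 ± 0.18 in WT males, Ctsd by 1.06 ± 0.15 and 1.39 ± 0.16, the thiol reductase Ifi30 by 1.45 ± 0.20 and 1.53 ± 0.26, and Ctsb by 0.46 ± 0.12 and 0.86 ± 0.12. Among the promoter factors, the RFX subunit Rfx5 had values of -0.07 ± 0.21 and 0.23 ± 0.20 in WT females and males and was called in neither. H2-Ea-ps, the I-E alpha pseudogene, had at most 1 count. March1 and March8, whose products remove class II from the surface, could not be matched by symbol.

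Class I presentation genes, which serve peptides from the cytosol to CD8 T cells, were mixed. Of 13 tested, 4 rose in WT females and 6 in WT males and 0 fell, 9 rose in Cyp2b-null females, and in Cyp2b-null males 4 rose and 5 fell, of which Erap1 was above 0 (0.03) with library size only. The peptide transporter Tap1 rose by 0.71 ± 0.20 and Tap2 by 0.63 ± 0.16 in WT females, and the class I heavy chain H2-D1 rose by 0.39 ± 0.12 in WT females and 0.76 ± 0.11 in WT males. Of 10 tested genes around interferon gamma and IL-10, which raise and lower class II in myeloid cells, 5 rose in WT mice of either sex and 6 in Cyp2b-null mice of either sex, and 0 fell. The receptor chain Ifngr2 rose by 1.30 ± 0.20 in WT females and 1.26 ± 0.14 in WT males, and Il10ra by 1.55 ± 0.29 and 2.34 ± 0.37. Irf8, a myeloid transcription factor, rose by 1.35 ± 0.18 and 1.92 ± 0.24. The cytokines themselves, Ifng and Il10, had 0 to 2 counts in every library.

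Leukocyte, macrophage and monocyte markers rose in the same comparisons as the members, whereas Kupffer cell, dendritic cell and B cell markers did so in part or not at all. All 4 leukocyte markers rose in each of the 4 diet comparisons. Ptprc, the pan-leukocyte phosphatase CD45, rose by 1.38 ± 0.19 in WT females and 2.14 ± 0.24 in WT males, and the summed level of the 4 went from 31.9 to 46.2 CPM to 97.6 to 126 CPM in WT females and from 17.5 to 21.6 CPM to 79.3 to 164 CPM in WT males. All 7 tested macrophage and monocyte markers rose in each comparison, with medians of 2.52 in WT females and 4.34 in WT males. Cd68 rose by 2.52 ± 0.23 and 3.70 ± 0.27 and Lyz2 by 2.46 ± 0.22 and 4.34 ± 0.33 in WT females and males. The summed macrophage and monocyte level went from 122 to 208 CPM to 533 to 719 CPM in WT females and from 57.6 to 93.1 CPM to 430 to 880 CPM in WT males, with Trem2 listed at 0 in all groups. Kupffer cell markers were mixed. Of 6, 2 rose and 2 fell in WT females and 4 rose and 1 fell in WT males. Timd4, a marker of resident Kupffer cells, fell by 4.15 on the log2 scale in WT females and by 2.07 in WT males, whereas Adgre1 rose by 0.82 ± 0.17 and 1.90 ± 0.25. The summed level of the 6 Kupffer cell markers was 314 to 496 CPM in ND-fed and 321 to 483 CPM in CDAHFD-fed WT females. In WT males it went from 115 to 255 CPM to 265 to 571 CPM. The part of these cells in the rise of the class II genes was not tested.

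Dendritic cell markers rose for 1 of 4 tested in WT females and 4 of 5 in WT males. Itgax, which macrophages of the diseased liver also carry, rose by 5.01 ± 0.31 in WT females and 5.15 ± 0.34 in WT males. Zbtb46, a marker of conventional dendritic cells, had values of -0.28 ± 0.31 and -0.39 ± 0.32 and was not called. It was the exception in WT males. The 8 markers on the list, with Itgax, summed to 6.60 to 14.5 CPM in ND-fed WT females. On CDAHFD the sum was 31.1 to 45.4 CPM. In WT males it went from 7.66 to 11.8 CPM to 28.7 to 62.2 CPM. Of 3 tested B cell markers 0 were called in WT mice of either sex by edgeR, and the summed level of the 8 on the list was 7.42 to 13.2 CPM in ND-fed and 9.20 to 14.9 CPM in CDAHFD-fed WT females. T cell markers were near the floor, with summed levels of 1.69 to 2.72 CPM and 2.90 to 7.55 CPM in the same groups, and 1 of 6 was tested in males and 0 in females. Of 4 sinusoidal endothelial markers 1 fell in WT females (Clec4g) and 1 rose in WT males (Lyve1), and of 4 cholangiocyte markers 1 rose in each (Sox9 in females, Epcam in males). Hepatocyte markers fell for 4 of 6 in females and 5 of 6 in males in both genotypes, for example Alb by 0.77 on the log2 scale in WT females and by 0.65 in WT males.

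**Figure D5:**
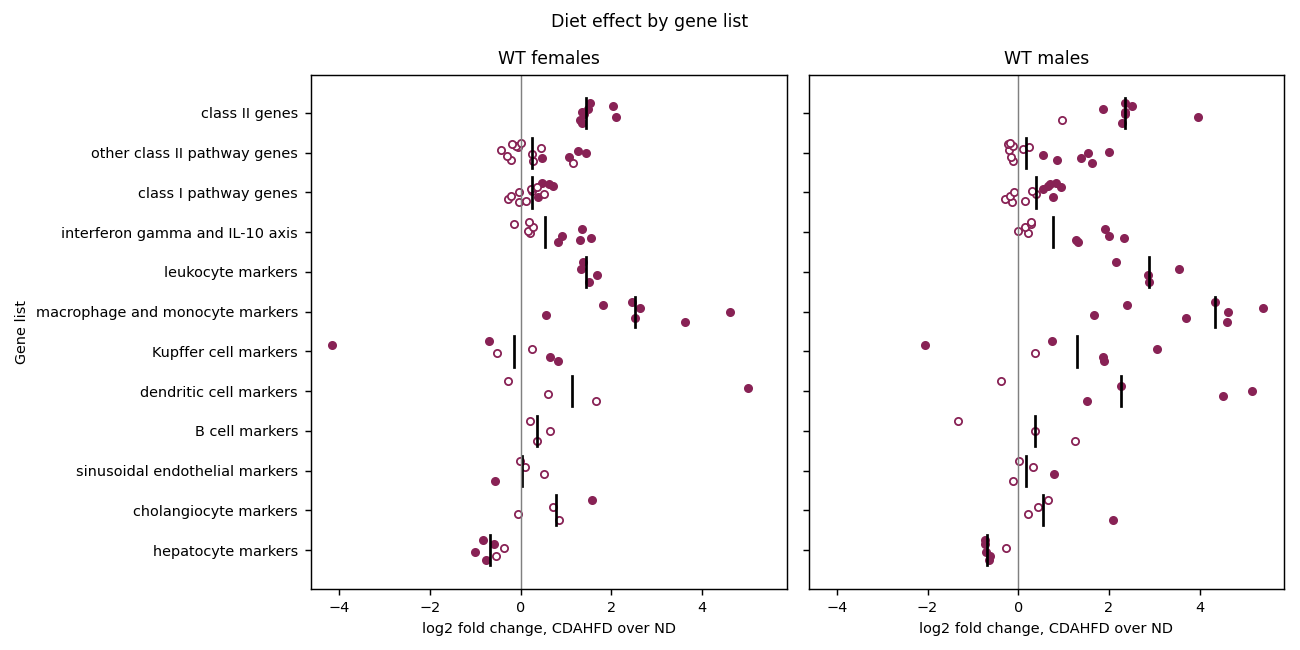
Log2 fold change of CDAHFD over ND (x axis) for each tested gene of 12 lists in WT females and WT males, filled where the adjusted p was under 0.05, with a black bar at the median of each list. The class II genes had medians of 1.45 and 2.34, the leukocyte markers 1.45 and 2.87, the macrophage and monocyte markers 2.52 and 4.34 and the hepatocyte markers -0.67 and -0.68.

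Libraries of the same group differed in many members at once. The CDAHFD-fed WT male replicate 1 had the lowest value of its group for 8 of 8 members. It was also lowest for the summed leukocyte (79.3 CPM), macrophage and monocyte (430 CPM), Kupffer cell (265 CPM) and dendritic cell markers (28.7 CPM), and highest for the summed hepatocyte markers. The ND-fed Cyp2b-null female replicate 3, the shallowest library, was lowest for 7 of 8 members, as were the ND-fed WT male replicate 2 and the CDAHFD-fed Cyp2b-null male replicate 2. Within their groups, the markers went with this in part. Summed leukocyte (29.5 CPM), macrophage and monocyte (138 CPM) and Kupffer cell markers (286 CPM) were lowest in the ND-fed Cyp2b-null female replicate 3. That library was second highest for the dendritic cell and hepatocyte markers. In the CDAHFD-fed Cyp2b-null male replicate 2 the leukocyte (118 CPM), Kupffer cell (314 CPM) and dendritic cell markers (40.6 CPM) were lowest. Its macrophage and monocyte and its hepatocyte markers were second lowest. The ND-fed WT male replicate 2 was lowest of its group for the summed leukocyte (17.5 CPM) and hepatocyte markers (113306 CPM), second lowest for the macrophage and monocyte and Kupffer cell markers, and highest for the dendritic cell markers (11.8 CPM). Taking each group's mean away, the deviations of H2-Aa and H2-Eb1 over the 32 libraries had a Pearson r of 0.93 (Spearman rho 0.93), those of H2-Aa and Cd74 0.90 (0.89), and those of Ciita and Ctss 0.05 (0.06), given as a description of libraries that share depth and scaling. The genes most like the average member in these deviations were C1qc, Psap, Cd68, Fcgr3 and Cd300a, out of 12970 compared in both tables. C1qc had r of 0.77 in females and 0.89 in males, and Cd68 0.73 and 0.86, and both are macrophage genes. Other myeloid genes followed less, above all in females. Csf1r had 0.34 and 0.70, Itgax -0.0061 and 0.25, Irf8 -0.088 and 0.68, and the pan-leukocyte gene Ptprc 0.24 and 0.60. On the values themselves, which also carry the diet difference, the first 5 were Cd68, Cyba, Spi1, Psap and Cyth4, with r of at least 0.96 in each table over 16 libraries.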

How the data were processed

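Liver RNA was extracted with TRIzol and sequenced as paired reads (NEB Next Ultra libraries). Per the labels and the study's methods, the authors used FastQC, Trimmomatic, GSNAP, Subread featureCounts and edgeR on GRCm38.p6. Versions, strand and multiple mapping settings are not given in the sources used here. The deposited values are raw counts per gene, not normalized, and the tables for females and males were read as deposited (0 unmapped columns). Counts were filtered with filterByExpr (smallest count 10, smallest total 15) in each sex, scaled with TMM and tested with edgeR 4.0.16 (R 4.3.3) in the 4 groups of a sex, or in all 8 groups for differences between sexes. The test was tested on simulated data. Members, gene lists and tests were chosen with earlier results of these data known. From each list, up to 4 genes were named by the larger of the adjusted p-values of the WT diet effect in the 2 sexes, and genes at 0 to 3 counts. Zbtb46, Rfx5, Nfyb and Erap1 were added after their values were seen, or to name a count of 1. Alternatives were RLE normalization, library size only, DESeq2 1.42.0, no low-count filter, at least 1 CPM in at least 4 libraries, only the groups compared, the replicate number as a block, leaving out the 2 libraries absent from the study's heat maps, and leaving out each library in turn. Promoters are from RefSeq (GRCm38.p6) and exon lengths and transcripts from GENCODE vM21.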

Additional observations from a re-analysis of the deposited data

Results flagged for a closer look

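Both sex differences of the diet effect on Ctss passed a test of the difference itself. The effect was larger in males than in females by 1.88 on the log2 scale in WT mice and by 1.60 in Cyp2b-null mice.

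Of 72 combinations of a gene and a group of 4, 5 held a library far from the other 3 by Dixon's criterion, which chance meets in about 1 group of 20. Cd74 was at 54.0 CPM in the ND-fed Cyp2b-null female replicate 3, with the next library at 94.7 CPM, and at 499.6 CPM in the CDAHFD-fed Cyp2b-null female replicate 3, with the next at 325 CPM. The latter is 1 of the 2 libraries absent from the study's heat maps. H2-Eb1 was at 10.9 CPM in the ND-fed Cyp2b-null male replicate 4, with the next at 12.9 CPM. H2-DMb1 was at 4.10 CPM in the CDAHFD-fed WT male replicate 1, with the next at 7.47 CPM, and at 2.86 CPM in the CDAHFD-fed Cyp2b-null male replicate 2, with the next at 6.25 CPM.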

How the results depend on the processing

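The number of members called for the diet effect stayed at 8 in WT females, Cyp2b-null females and Cyp2b-null males and at 7 or 8 in WT males under every alternative run. It stayed at 0 for the genotype effects, the genotype differences of the diet effect and the sex difference of the genotype effect, and at 1 for the sex difference of the diet effect in Cyp2b-null mice. For the sex difference of the diet effect in WT mice, called members rose from 1 to 4 without the low-count filter, with H2-Ab1 at 1.01, H2-Aa at 0.93 and Cd74 at 0.92, and ranged from 1 to 2 over the fits without single libraries. Ciita in WT males was called with library size only (1.37, adjusted p = 0.023) and without the low-count filter (0.96, adjusted p = 0.016), and not under the other 6 alternatives that kept all libraries or left out the 2 absent from the heat maps. Without single libraries it ran from 0.63 to 1.52. The cause of these changes was not tested.

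Some values that were not called turned sign without single libraries. For H2-DMb1 they ran from -0.0902 to 0.212 for the genotype effect on ND in females, from -0.164 to 0.0526 for that on CDAHFD in females, and from -0.274 to 0.0240 for the genotype difference of the diet effect in females. For Ciita they ran from -0.902 to 0.0202 for the genotype effect on ND in males and from -0.66 to 0.24 for the sex difference of the diet effect in WT mice, with the highest value of each without the ND-fed WT male replicate 4. For Ctss the sex difference of the genotype effect ran from -0.13 to 0.23.

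Counts over all genes for the genotype effects, the genotype differences and the sex differences moved most without the low-count filter, from 10 to 122 for the genotype effect on ND in females, 5 to 170 on ND in males, 3 to 69 on CDAHFD in females, 4 to 51 on CDAHFD in males, 0 to 46 and 1 to 95 for the genotype differences of the diet effect in females and males, and 136 to 469, 477 to 923 and 1 to 49 for the sex differences. DESeq2 called 21, 61, 5, 2 and 3 for the first 3 and for the genotype differences in females and males, and 214 for the sex difference in WT mice. With only the groups compared the last count was 79, and without the 2 libraries absent from the heat maps that in Cyp2b-null mice was 245. The remaining counts of this kind that moved by over 1.5 times were between 0 and 8. Without single libraries, all genes called ran from 2 to 29 for the genotype effect on ND in males, with the highest count without the ND-fed WT male replicate 2, from 84 to 261 for the sex difference in WT mice (261 without the CDAHFD-fed WT male replicate 1), and from 238 to 578 for that in Cyp2b-null mice (238 without the CDAHFD-fed Cyp2b-null male replicate 3). The counts for the diet effects moved by less than 1.5 times under every alternative run.

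With the replicate number as a block, the called members were 8, 8, 7 and 8 for the diet effects, 0 for the genotype effects and 1 for each sex difference of the diet effect, and the replicate block changed no call of a member. It moved all genes called for the genotype effect on ND in males from 5 to 8. The labels do not say that a number marks a shared batch. Deviations of same-numbered libraries had a median correlation of -0.01 in females and 0.03 in males, with 2 and 3 of 24 pairs over 0.1.

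Depth limits the low members. H2-DMb2 and H2-Oa were at or near the floor of 3 counts, and H2-DMa, H2-DMb1 and Ciita were at 3 to 31 counts in ND-fed libraries.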
